A study of Mus musculus with 12 samples.

Results

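The 9 genes that were followed mark osteoclasts, the multinucleated cells that resorb bone. They were taken by name in cultures of mouse calvarial osteoblasts: Acp5, Ctsk, Dcstamp, Ocstamp, Atp6v0d2, Nfatc1, Tnfrsf11a, Oscar and Itgb3. All 9 were among the 49585 genes of the count table, and all 9 were among the 16318 genes with enough reads to be tested. The cultures came from the calvariae of C57BL/6J pups aged between postnatal days 3 and 5, with 1 to 3 calvariae in a replicate by the labels. There were 4 groups of 3 libraries: day 3 Bcl3-/-, day 3 WT, day 1 Bcl3-/- and day 1 WT. Every culture was kept in osteogenic medium with 50 µg/mL ascorbic acid and 2 mM β-glycerophosphate, so no group was without induction. Bcl3-/- cultures are labelled as coming from pups without Bcl3, the gene for an atypical inhibitor of NF-κB, and WT cultures came from littermates. The labels name 6 cultures, 3 for each genotype, and each gave a library on both days.

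Osteoclasts form from cells of the monocyte and macrophage lineage. The cytokine M-CSF keeps the precursors alive, and RANKL, made by osteoblasts and stromal cells among others, binds the receptor RANK on them. RANK signals through NF-κB and AP-1 to the transcription factor NFATc1, with another input from receptors that carry immunoreceptor tyrosine-based activation motifs (ITAMs). Precursors then fuse and make the enzymes, the proton pump and the integrin with which the mature cell attaches to bone and dissolves it. Osteoblasts also make osteoprotegerin, a decoy that binds RANKL. Several of these genes are also known outside osteoclasts, Nfatc1, Ctsk and Itgb3 among them.

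Between 20009732 and 41953891 reads were counted in genes per library, with a median of 31792039. Of the cell type marker lists, the osteoblast list had the largest sum. Its 10 genes summed to between 38263.8 and 86724.4 CPM per library, the count scaled by the library total. Between 81.5 and 88.4% of that sum was the collagen genes Col1a1 and Col1a2. Bcl3 averaged 9.42 ± 1.00 CPM in day 3 libraries labelled Bcl3-/- and 14.5 ± 1.59 CPM in day 3 WT libraries (SD, n = 3 each). On day 1 it averaged 18.8 ± 1.17 CPM in libraries labelled Bcl3-/- and 19.2 ± 2.28 CPM in WT libraries (SD, n = 3 each). The count of Bcl3 was lower in the libraries labelled Bcl3-/- on day 3, by a log2 fold change of -0.62 (SE 0.12, edgeR Benjamini-Hochberg adjusted p = 0.00863), and was not called on day 1, at -0.03 (SE 0.12, adjusted p = 0.887). The files hold a single count for the whole gene, so they do not check a deletion of some of its exons. The genotype is therefore given as labelled in all that follows.

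Promoter sequence is shown for 3 of the genes because their levels moved differently in these cultures: Ctsk and Acp5 were higher on day 3 in both genotypes, and Tnfrsf11a was not called over time but was lower in Bcl3-/- libraries on both days. RefSeq windows of 250 bases before to 50 bases after a gene's start were given for 4 of the 9 genes (GRCm38.p6). Capitals mark the 5 letters GGAAA, the core that NFAT proteins bind, the 6 letters GAGGAA, a core of the myeloid factor PU.1, and the E-box CATGTG that MITF can bind, on either strand. Of the 3 windows listed for Acp5, the one farthest downstream is printed. The windows are Ctsk, chr3:95498960-95499259 on the plus strand, Acp5, chr9:22130549-22130848 on the minus strand, and Tnfrsf11a, chr1:105780473-105780772 on the plus strand.
Ctsk: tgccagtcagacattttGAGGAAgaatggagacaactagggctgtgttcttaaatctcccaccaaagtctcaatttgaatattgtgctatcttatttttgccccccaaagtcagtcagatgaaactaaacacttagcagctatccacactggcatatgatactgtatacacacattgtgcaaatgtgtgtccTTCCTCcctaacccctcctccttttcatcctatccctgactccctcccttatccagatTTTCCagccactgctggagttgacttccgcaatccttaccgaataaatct
Acp5: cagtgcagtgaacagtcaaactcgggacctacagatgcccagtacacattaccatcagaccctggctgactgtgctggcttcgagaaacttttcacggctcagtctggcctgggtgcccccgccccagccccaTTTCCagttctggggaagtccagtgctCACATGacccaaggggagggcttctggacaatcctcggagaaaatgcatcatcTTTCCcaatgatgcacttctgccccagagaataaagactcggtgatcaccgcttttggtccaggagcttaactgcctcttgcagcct
Tnfrsf11a: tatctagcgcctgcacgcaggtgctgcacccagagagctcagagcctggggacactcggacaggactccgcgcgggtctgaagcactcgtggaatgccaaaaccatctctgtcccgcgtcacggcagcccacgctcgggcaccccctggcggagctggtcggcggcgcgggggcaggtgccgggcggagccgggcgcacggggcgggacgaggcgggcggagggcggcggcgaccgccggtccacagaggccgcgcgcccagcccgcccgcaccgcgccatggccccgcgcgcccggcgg
The Ctsk window held GAGGAA 2 times, at positions -233 and -58 from the start, and GGAAA 1 time. The Acp5 window held GGAAA 2 times and CATGTG 1 time, and none of the letters marked by capitals were found in the Tnfrsf11a window. A loose form of the site that NF-κB binds, GGG and CC set 5 bases apart, was searched on both strands as well and is not in capitals. It occurred 2 times in the Tnfrsf11a window, at positions -114 and -69, 2 times in the Acp5 window, at -139 and -106, and not in the Ctsk window. Neither the AP-1 letters TGANTCA nor the E-box CACGTG occurred in any of the 3 windows. Among 32851 windows of the same length, 61.3% held GGAAA, 50.8% the loose NF-κB site, 28.3% GAGGAA, 14.2% CATGTG, 7.81% TGANTCA and 7.15% CACGTG on either strand. These letters are common in the mouse genome, and a match is a description of the sequence only. The Tnfrsf11a window was also the richest of the 3 in G and C, at 76.7%, against 54.7% for Acp5 and 43.7% for Ctsk.

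The genes differed widely in level when read per length, as the FPKM values deposited by the authors, in which fragments are scaled by transcript length and library size. These values are not sound for every gene. Col1a1 was listed at 0 FPKM in every day 3 WT and day 1 Bcl3-/- library, where it averaged 47491 and 39549 CPM. The cause was not tested. Ctsk (chr3:95499256-95509362) encodes cathepsin K, the collagen-cleaving protease of the resorption pit, and it stood first in every group. Its mean was 273 ± 5.55 FPKM in day 3 Bcl3-/-, 217 ± 34.7 in day 3 WT, 145 ± 11.1 in day 1 Bcl3-/- and 105 ± 13.4 in day 1 WT libraries (SD, n = 3 each). Between 94.1 and 98.4% of all tested genes had a lower mean in the same group. Acp5, Nfatc1 and Itgb3 took the next 3 places in every group, with group means between 4.41 and 19.8 FPKM. In the day 3 groups Acp5 was the second, and in the day 1 groups Nfatc1 was. Neighbours in this order were often not separated: the ranges of Itgb3 and Nfatc1 overlapped in day 3 Bcl3-/- libraries, those of Acp5, Nfatc1 and Itgb3 in day 3 WT libraries, and those of Acp5 and Itgb3 in both day 1 groups.

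**Figure D1:**
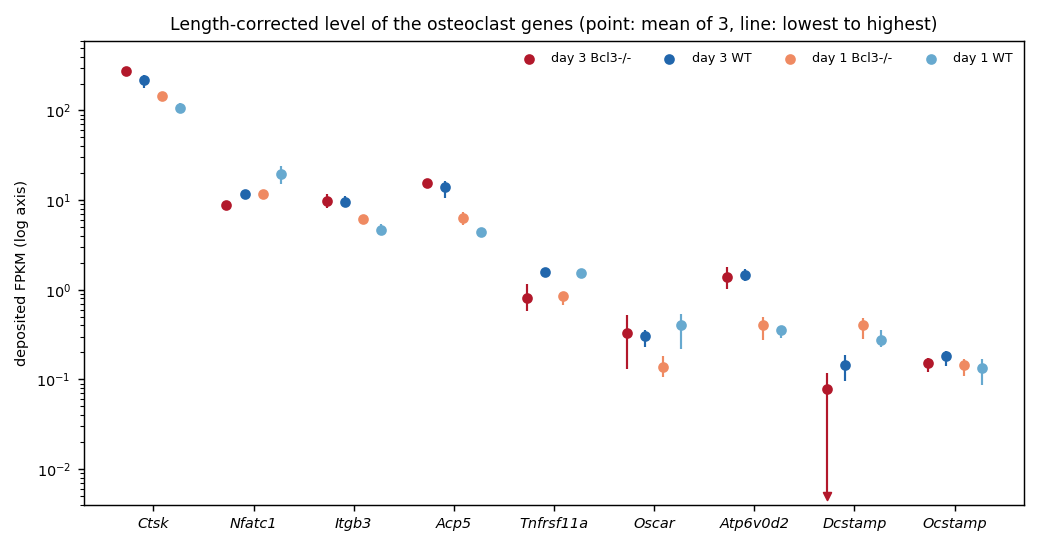
Deposited FPKM of the 9 genes on a log axis, in the order of their mean in day 1 WT libraries. Points are means of 3 libraries, lines run between the lowest and highest library, and the arrow marks the library in which Dcstamp was listed at 0. Ctsk lies above 100 FPKM in the mean of every group, and Oscar, Ocstamp and Dcstamp lie below 0.5 FPKM in all of them.

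Below these, Tnfrsf11a averaged between 0.814 and 1.59 FPKM and Atp6v0d2 between 0.355 and 1.45 FPKM over the groups. Dcstamp, Ocstamp and Oscar averaged between 0.0783 and 0.407 FPKM, and at most 13.3% of the tested genes had a lower mean in the same group. These 3 were below 1 CPM in all 12 libraries, with at most 29 reads in a library. Dcstamp passed the filter of 0.315 CPM in at least 3 libraries through day 1, being over it in 0 of 3 day 3 Bcl3-/-, 1 of 3 day 3 WT and all 6 day 1 libraries. Oscar was over it in 2 day 3 Bcl3-/-, 3 day 3 WT, 0 day 1 Bcl3-/- and 3 day 1 WT libraries. Ocstamp was over it in 10 libraries. Differences of these 3 genes therefore rest on few reads, and only large ones could be seen at this depth.

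In time, the effector genes of resorption and attachment were higher on day 3 in both genotypes. Acp5, Ctsk, Atp6v0d2 and Itgb3 were called higher in each genotype. Of the other 5, Nfatc1 was called lower in WT libraries, and Ocstamp, Tnfrsf11a and Oscar were called in neither. Dcstamp was called lower in Bcl3-/- libraries, but it passed the filter through the day 1 libraries, where it is high, and is not counted as a fall. Thus 4 of 9 genes rose in each genotype and 1 fell in WT libraries, whereas among all tested genes 16.2% rose and 17.2% fell in Bcl3-/- libraries, and 20.6% rose and 17.9% fell in WT libraries. The median log2 fold change of the 9 was 0.72 in Bcl3-/- and 0.56 in WT libraries, and that of all tested genes was 0.00 in both. A gene was called changed when edgeR's quasi-likelihood test gave a Benjamini-Hochberg adjusted p under 0.05 over the 16318 genes.

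Acp5, which encodes tartrate-resistant acid phosphatase, the enzyme stained for to recognise osteoclasts, had 19.6, 20.2 and 17.8 CPM in day 3 Bcl3-/- libraries, against 5.97, 7.40 and 8.73 CPM in day 1 Bcl3-/- libraries. The day 3 WT libraries had 12.5, 18.8 and 19.3 CPM of Acp5, against 4.48, 4.85 and 5.65 CPM on day 1. Every day 3 library lay above every day 1 library, and the day 3 WT libraries were the most scattered. The rise was 1.39 on the log2 scale in Bcl3-/- libraries (SE 0.18, adjusted p = 0.000147, edgeR) and 1.75 in WT libraries (SE 0.18, adjusted p = 2.62e-05). Acp5 lies at GRCm38 chr9:22126727-22135711 and overlaps 6530413G14Rik on the other strand, and reads of the 2 genes cannot be told apart because the strand setting of the counting is not given in the sources used here.

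Ctsk had 386, 396 and 377 CPM in day 3 Bcl3-/- libraries, against 205, 175 and 199 CPM in day 1 Bcl3-/- libraries. Ctsk in WT libraries had 244, 317 and 334 CPM on day 3, against 126, 127 and 160 CPM on day 1. The days were apart in both genotypes, with folds of 2.00 in Bcl3-/- and 2.17 in WT libraries. The edgeR tests gave a log2 fold change of 1.00 in Bcl3-/- libraries (SE 0.12, adjusted p = 0.000102) and of 1.11 in WT libraries (SE 0.12, adjusted p = 3.73e-05).

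Atp6v0d2 (chr4:19876841-19922605) encodes the d2 subunit of the vacuolar proton pump, which osteoclasts use for acid secretion and which has also been tied to fusion. It had 3.48, 4.53 and 2.58 CPM in day 3 Bcl3-/- libraries, against 1.14, 0.648 and 1.09 CPM in day 1 Bcl3-/- libraries. Its level in WT libraries was 3.69, 3.44 and 3.06 CPM on day 3, against 0.905, 0.683 and 0.905 CPM on day 1. This gene had the largest fold of the 9 over time in WT libraries, at 4.11, and its fold in Bcl3-/- libraries was 3.68. The days did not overlap, and the log2 fold changes were 1.88 in Bcl3-/- (SE 0.26, adjusted p = 0.000236, edgeR) and 2.04 in WT libraries (SE 0.26, adjusted p = 0.0001). Its reads ranged from 19 to 140 per library.

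Itgb3 (chr11:104608000-104670476) encodes integrin β3, which pairs with αv in the receptor that osteoclasts use to seal themselves to bone. It had 53.2, 49.5 and 71.2 CPM in day 3 Bcl3-/- libraries, against 36.7, 34.6 and 34.0 CPM in day 1 Bcl3-/- libraries. For WT libraries the values were 48.8, 52.7 and 64.6 CPM on day 3, against 21.8, 24.8 and 30.6 CPM on day 1. All day 3 libraries were above all day 1 libraries, and the third replicate was the highest in both day 3 groups. The log2 fold change was 0.72 in Bcl3-/- (SE 0.15, adjusted p = 0.00383, edgeR) and 1.10 in WT libraries (SE 0.15, adjusted p = 0.000185).

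**Figure D2:**
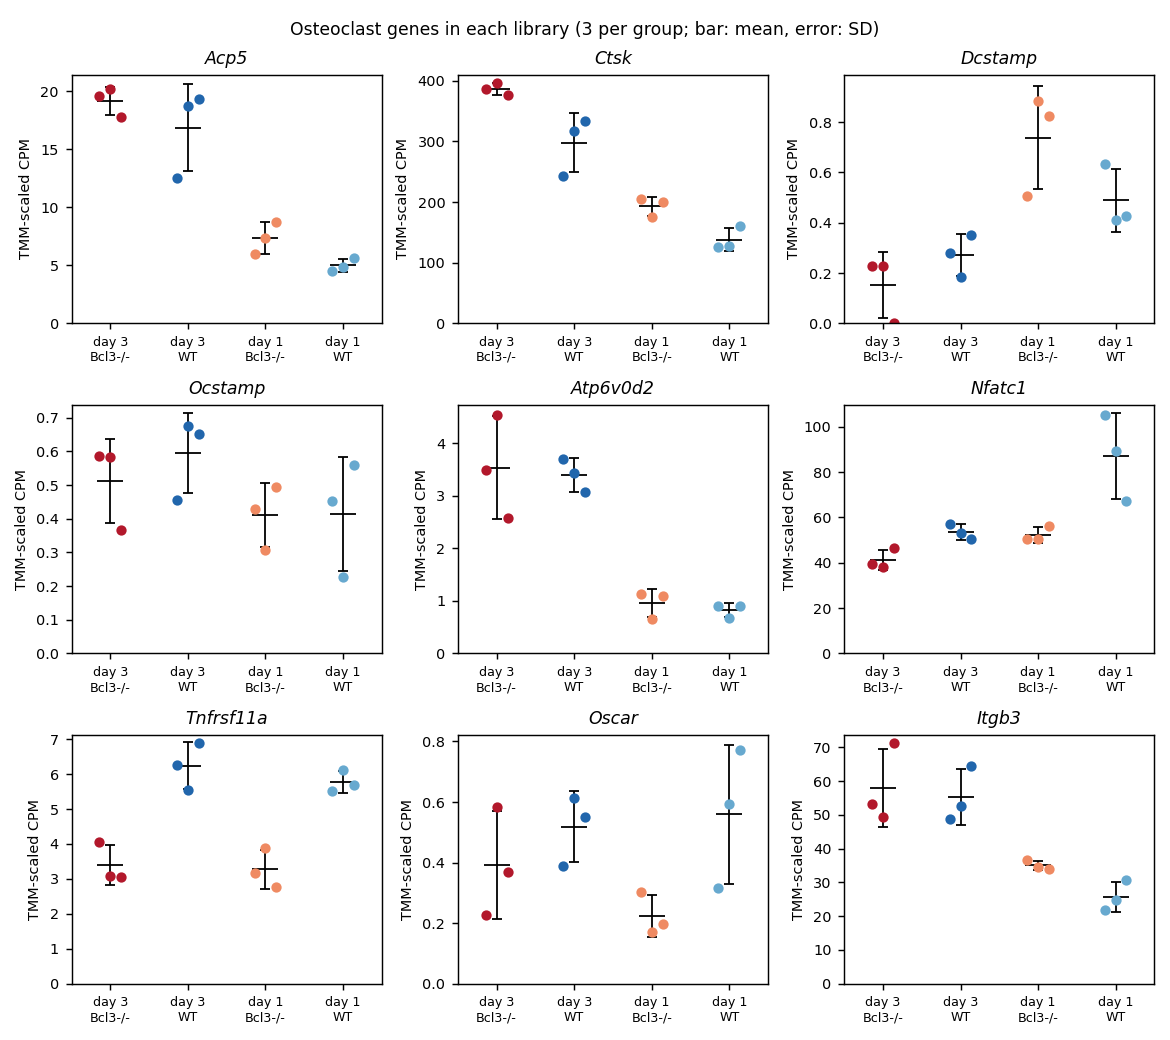
CPM scaled by trimmed mean of M values (TMM) of each of the 9 genes, a panel for each, in the 4 groups from day 3 Bcl3-/- to day 1 WT. Points are single libraries, the bar is the mean and the whiskers are 1 SD over 3 libraries. The day 3 points of Acp5, Ctsk, Atp6v0d2 and Itgb3 lie above their day 1 points, Tnfrsf11a separates by genotype on both days, and Nfatc1 is highest in day 1 WT libraries.

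Dcstamp and Ocstamp, for fusion, and Nfatc1 and Tnfrsf11a, of the RANK pathway, were not called higher over time in either genotype. Dcstamp and Ocstamp had few reads, so these libraries do not decide whether the fusion genes moved differently from the genes that rose. Dcstamp (chr15:39745930-39760938) encodes a membrane protein that is required for fusion of precursors. It had 0.228, 0.227 and 0 CPM in day 3 Bcl3-/- libraries, from 7, 7 and 0 reads, against 0.506, 0.886 and 0.824 CPM in day 1 Bcl3-/- libraries, from 20, 26 and 25 reads. The library at 0 allows a level of up to 0.150 CPM (3 reads, counting error only). In WT libraries Dcstamp had 0.281, 0.184 and 0.351 CPM on day 3, from 8, 6 and 14 reads, against 0.633, 0.410 and 0.426 CPM on day 1, from 14, 18 and 16 reads. The days did not overlap in either genotype. In Bcl3-/- libraries the log2 fold change was -2.09 (SE 0.53, adjusted p = 0.00968, edgeR), and -1.67 without the library at 0 (adjusted p = 0.0118). No day 3 Bcl3-/- library was over the filter, so the gene was tested because of its day 1 level, and this value is given as a description of few reads. With no count filter it was -2.11 (adjusted p = 0.00346). In WT libraries the log2 fold change was -0.78 (95% interval -1.85 to 0.29, adjusted p = 0.237), and the difference between the genotypes in this change was not called (-1.31, SE 0.74, adjusted p = 0.539).

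Ocstamp (chr2:165393760-165400405) encodes a related membrane protein of fusion. It had 0.585, 0.583 and 0.368 CPM in day 3 Bcl3-/- libraries, against 0.430, 0.307 and 0.494 CPM in day 1 Bcl3-/- libraries. In WT libraries it had 0.457, 0.675 and 0.652 CPM on day 3, against 0.452, 0.228 and 0.559 CPM on day 1. The days overlapped in both genotypes. The 95% interval of the log2 fold change ran from -0.47 to 1.16 in Bcl3-/- and from -0.22 to 1.34 in WT libraries, so a rise of the size seen for Itgb3 lies inside both.

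Nfatc1, the transcription factor at the end of RANK signaling, had 39.3, 38.1 and 46.3 CPM in day 3 Bcl3-/- libraries, against 50.4, 50.3 and 56.2 CPM in day 1 Bcl3-/- libraries. In WT libraries it had 57.1, 53.2 and 50.4 CPM on day 3, against 105, 89.2 and 67.4 CPM on day 1. Every day 3 library was below the day 1 libraries of its genotype. In WT libraries it fell by 0.70 on the log2 scale (SE 0.14, adjusted p = 0.00154, edgeR). In Bcl3-/- libraries the log2 fold change was -0.34 (95% interval -0.64 to -0.05) and not called (adjusted p = 0.0720), although it was called with the 3 cultures as a replicate block (adjusted p = 0.0186), with no count filter (adjusted p = 0.0256), in the 6 libraries alone (adjusted p = 0.0253), or without day 1 WT replicate 1 (adjusted p = 0.0363), day 1 WT replicate 3 (adjusted p = 0.0163) or day 3 Bcl3-/- replicate 3 (adjusted p = 0.0419). The WT and Bcl3-/- changes were not called different (0.36, SE 0.19, adjusted p = 0.514). Nfatc1 lies at chr18:80606205-80713071 and overlaps the antisense gene AC123818.1.

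Tnfrsf11a (chr1:105780718-105847981), the receptor RANK, was not called over time and its days overlapped in both genotypes, with log2 fold changes of 0.06 in Bcl3-/- (95% interval -0.31 to 0.43) and 0.11 in WT libraries (95% interval -0.24 to 0.46). Oscar (chr7:3609813-3616157) encodes a collagen-binding receptor that signals through an ITAM adaptor. It had a log2 fold change of 0.78 in Bcl3-/- (95% interval -0.23 to 1.79) and -0.15 in WT libraries (95% interval -0.99 to 0.69), and its days overlapped in both genotypes. Acp5, Ctsk, Atp6v0d2 and Itgb3 were apart upward between the days in each genotype, and Nfatc1 was apart downward. Dcstamp was apart downward as well, but it passed the filter through the day 1 libraries, where it is high, and is not counted. The groups of 47.2% of all tested genes in Bcl3-/- and 48.8% in WT libraries were apart in either direction.

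**Figure D3:**
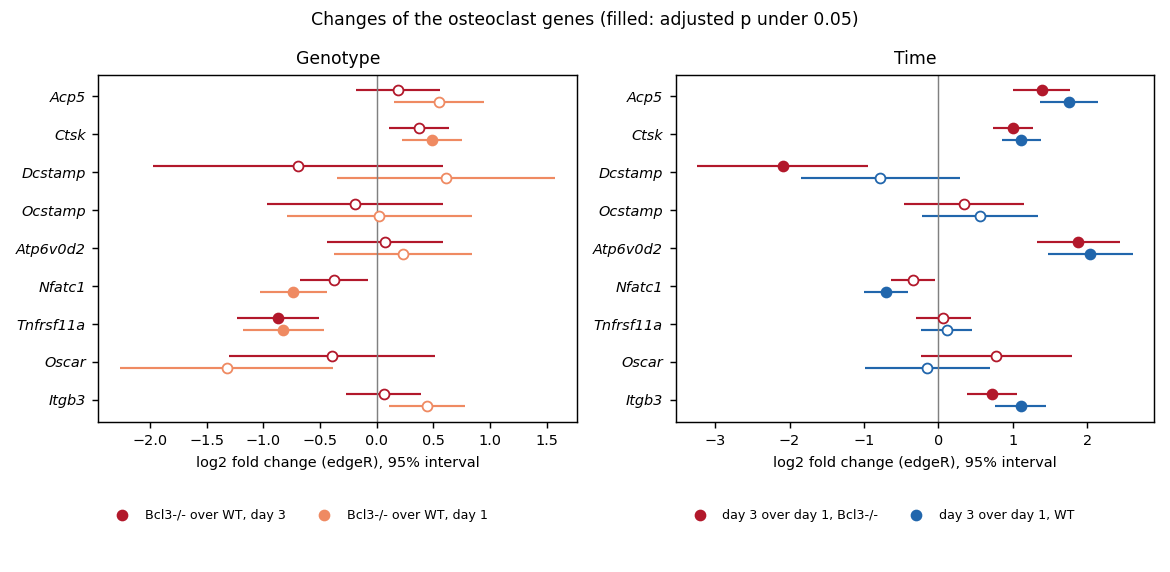
Log2 fold changes of the 9 genes with 95% intervals, for genotype at left (Bcl3-/- over WT, on day 3 and day 1) and for time at right (day 3 over day 1, in Bcl3-/- and WT libraries). Filled points have an edgeR Benjamini-Hochberg adjusted p under 0.05. Acp5, Ctsk, Atp6v0d2 and Itgb3 are filled to the right of 0 in both genotypes, and Tnfrsf11a is filled to the left of 0 on both days. The filled Dcstamp point rests on at most 26 reads in a library.

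Other genes of acid secretion and resorption moved upward over time as well. The counts over time of this list and of the lists that follow stand beside the shares over all tested genes. Those shares were 16.2% higher and 17.2% lower in Bcl3-/- libraries, and 20.6% higher and 17.9% lower in WT libraries. Of 24 such genes, 14 rose and 1 fell in Bcl3-/- libraries, and 15 rose and 0 fell in WT libraries (edgeR), with medians on the log2 scale of 0.24 in Bcl3-/- and 0.32 in WT libraries. Examples were Mmp14, a membrane-bound collagenase, at 0.65 in Bcl3-/- (SE 0.08, adjusted p = 9.25e-05) and 0.80 in WT libraries (SE 0.08, adjusted p = 1.87e-05), and Ctsb, the lysosomal protease cathepsin B, at 0.55 in Bcl3-/- and 0.59 in WT libraries (SE 0.07 each, adjusted p = 8.63e-05 and 3.72e-05). The exception in Bcl3-/- libraries was Car2, the carbonic anhydrase that supplies protons, at -2.99 (SE 0.83, adjusted p = 0.0154). Most of these genes, lysosomal proteases and subunits of the general proton pump, are known in many cell types.

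Genes of RANK and M-CSF signaling gave mixed counts. Of 24, 4 rose and 7 fell over time in Bcl3-/- libraries, and 2 rose and 9 fell in WT libraries (edgeR), with medians on the log2 scale of -0.14 in Bcl3-/- and -0.15 in WT libraries. The falls included subunits of AP-1, the factor through which RANK reaches Nfatc1. Fosl1 was at -1.60 in Bcl3-/- (SE 0.20, adjusted p = 0.000111) and -1.91 in WT libraries (SE 0.19, adjusted p = 2.18e-05), and Junb at -1.88 in Bcl3-/- (SE 0.16, adjusted p = 6.68e-06) and -1.07 in WT libraries (SE 0.15, adjusted p = 0.000204). Csf1r, the M-CSF receptor, rose in both, by 0.49 in Bcl3-/- (SE 0.18, adjusted p = 0.0471) and 0.84 in WT libraries (SE 0.17, adjusted p = 0.00219).

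The ligands were present at both times. Tnfsf11, which encodes RANKL, averaged 7.39 ± 2.00 CPM in day 3 Bcl3-/-, 6.88 ± 1.15 in day 3 WT, 10.2 ± 2.05 in day 1 Bcl3-/- and 10.8 ± 1.78 CPM in day 1 WT libraries (SD, n = 3 each). It was called over time in WT libraries only, at -0.64 (SE 0.22, adjusted p = 0.0352, edgeR), against -0.46 in Bcl3-/- libraries (95% interval -0.94 to 0.02), and the genotypes were not called different in this change (0.18, SE 0.31, adjusted p = 0.893). Tnfrsf11b, the decoy osteoprotegerin, fell over time in both genotypes, by 1.13 in Bcl3-/- (SE 0.28, adjusted p = 0.0083) and by 1.33 in WT libraries (SE 0.27, adjusted p = 0.00234). Csf1, which encodes M-CSF, was at -0.22 in Bcl3-/- (SE 0.12, adjusted p = 0.185) and -0.72 in WT libraries (SE 0.12, adjusted p = 0.000674).

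Of 11 tested ITAM co-stimulation genes, 2 rose and 2 fell over time in Bcl3-/- libraries, and 5 rose and 1 fell in WT libraries (edgeR). The Bcl3-/- counts lay near the shares over all tested genes, 16.2% higher and 17.2% lower. Fcgr3, an Fc receptor of myeloid cells, was at 1.44 in Bcl3-/- (SE 0.25, adjusted p = 0.000945) and 1.53 in WT libraries (SE 0.24, adjusted p = 0.000423). Syk, the kinase that the ITAM adaptors recruit, fell in both, by 1.08 in Bcl3-/- (SE 0.21, adjusted p = 0.00192) and by 0.79 in WT libraries (SE 0.20, adjusted p = 0.00709). Of 11 fusion genes besides Dcstamp and Ocstamp, 3 rose and 2 fell in Bcl3-/- libraries, and 6 rose and 2 fell in WT libraries. Cd44, an adhesion receptor, fell by 1.08 in Bcl3-/- (SE 0.12, adjusted p = 6.80e-05) and by 1.21 in WT libraries (SE 0.12, adjusted p = 2.50e-05), and Cd200 was at 1.46 in Bcl3-/- and 1.36 in WT libraries (SE 0.28 each, adjusted p = 0.00199 and 0.0025).

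Among 12 tested repressors of osteoclast formation, 3 rose and 5 fell over time in Bcl3-/- libraries, and 1 rose and 5 fell in WT libraries (edgeR). The gene that rose in WT libraries was Lgals9, which encodes the lectin galectin-9, by 1.19 on the log2 scale (SE 0.15, adjusted p = 8.09e-05). Of 11 tested integrin partners, 2 rose and 4 fell in Bcl3-/- libraries, and 2 rose and 2 fell in WT libraries. Itgb5, another β subunit that pairs with αv, rose by 0.77 in WT libraries (SE 0.12, adjusted p = 0.000384), and Spp1, the ligand osteopontin, fell by 1.25 in Bcl3-/- libraries (SE 0.16, adjusted p = 0.000139).

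Macrophage markers moved with the osteoclast genes over time in part. Of 20 such markers, 11 rose and 3 fell in Bcl3-/- libraries, and 13 rose and 0 fell in WT libraries (edgeR), with medians on the log2 scale of 0.59 in Bcl3-/- and 1.06 in WT libraries. Their summed level was 1252, 775 and 561 CPM in day 3 Bcl3-/- libraries, against 688, 984 and 1158 CPM in day 1 Bcl3-/- libraries. In WT libraries it was 1200, 1137 and 1492 CPM on day 3, against 849, 658 and 939 CPM on day 1. The sums were apart between the days in WT libraries and overlapped in Bcl3-/- libraries. Cd74, an MHC class II chaperone, took up to 54.9% of the sum in a library and was itself at -2.90 in Bcl3-/- libraries (SE 0.91, adjusted p = 0.0289). The other 19 markers, a division made after the values were seen, summed to 1086, 766 and 554 CPM in day 3 Bcl3-/- libraries, against 465, 474 and 523 CPM in day 1 Bcl3-/- libraries, and were apart. In WT libraries they summed to 915, 946 and 1331 CPM on day 3, against 507, 395 and 622 CPM on day 1. The 9 osteoclast genes summed to 507, 513 and 519 CPM in day 3 Bcl3-/- libraries, against 303, 273 and 304 CPM in day 1 Bcl3-/- libraries, and between 47.6 and 77.3% of their sum in a library was Ctsk. Without Ctsk, also a division made after the values were seen, the other 8 genes overlapped between the days in WT libraries. They summed there to 129, 135 and 146 CPM on day 3, against 139, 127 and 112 CPM on day 1. In Bcl3-/- libraries they were apart, at 121, 117 and 142 CPM on day 3, against 98.6, 98.1 and 104 CPM on day 1. Of the defining markers, Adgre1, which encodes F4/80, rose by 1.22 in both genotypes (SE 0.20 each, adjusted p = 0.000766 in Bcl3-/- and 0.000485 in WT libraries), and Cd68 rose by 1.35 in Bcl3-/- and 1.21 in WT libraries (SE 0.22 each, adjusted p = 0.000786 and 0.00103). Cx3cr1 and Ptprc went the other way in Bcl3-/- libraries, with means of 0.914 and 8.10 CPM on day 3, against 2.49 and 16.3 CPM on day 1. In WT libraries their means were 9.58 and 19.0 CPM on day 3, against 3.99 and 16.9 CPM on day 1. None of the 20 was at 0 counts in a whole group. In a bulk sample fewer cells of a type and less RNA per cell cannot be told apart, and the part of macrophage number in the rise of the osteoclast genes was not tested.

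**Figure D4:**
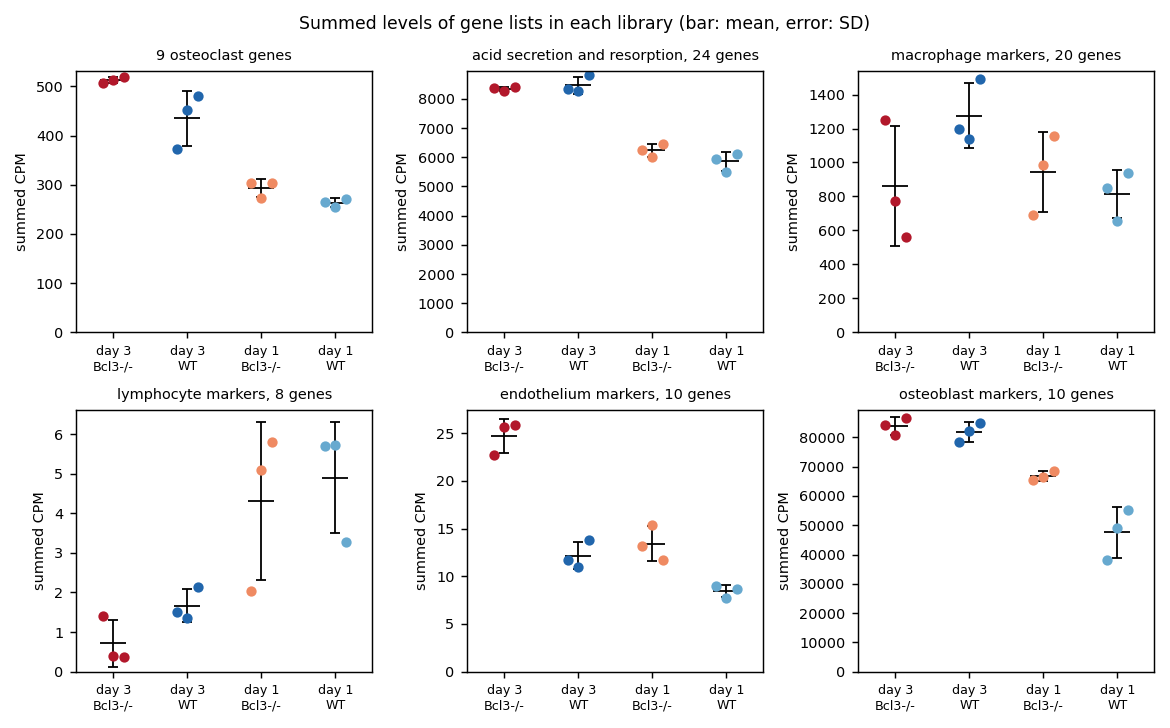
Summed CPM of 6 gene lists in each library, in the 4 groups from day 3 Bcl3-/- to day 1 WT (point: library, bar: mean, whiskers: 1 SD, n = 3). The sums of the 9 osteoclast genes and of the resorption genes are higher on day 3 in both genotypes. Most of the first sum is Ctsk in nearly all libraries, and without Ctsk (not drawn) it overlaps between the days in WT libraries. Macrophage markers in day 3 Bcl3-/- libraries spread between 561 and 1252 CPM and overlap with day 1. The sums without Cd74, a division made after the values were seen, are not drawn.

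Lymphocyte, neutrophil, endothelium, megakaryocyte and platelet, and osteocyte markers gave smaller sums than the macrophage markers. Smooth muscle markers, at 2079 to 3559 CPM in a library, and osteoblast markers gave larger ones. Lymphocyte markers summed to between 0.368 and 1.40 CPM in day 3 Bcl3-/-, 1.35 and 2.13 in day 3 WT, 2.05 and 5.80 in day 1 Bcl3-/- and 3.28 and 5.71 CPM in day 1 WT libraries. Neutrophil markers summed to at most 1.12 CPM in a library, with 1 of 8 markers tested. The 8 megakaryocyte and platelet markers, which matter here because platelets also carry Itgb3, summed to between 7.77 and 12.6 CPM in all libraries, but single markers moved in opposite directions. Ppbp averaged 0.0501 ± 0.0488 CPM in day 3 Bcl3-/- and 0.312 ± 0.0382 CPM in day 3 WT libraries, against 1.30 ± 0.350 CPM in day 1 Bcl3-/- and 5.06 ± 2.05 CPM in day 1 WT libraries (SD, n = 3 each). Pf4 rose by 1.30 on the log2 scale in Bcl3-/- (SE 0.38, adjusted p = 0.0210, edgeR) and by 1.10 in WT libraries (SE 0.38, adjusted p = 0.0358). The part of these cells in the level of Itgb3 was not tested. Osteocyte markers summed to between 130 and 179 CPM. The osteoblast list had a higher sum on day 3, at 80629 to 86724 CPM in Bcl3-/- and 78280 to 84952 CPM in WT libraries, against 65359 to 68580 CPM in day 1 Bcl3-/- and 38264 to 55341 CPM in day 1 WT libraries. Between 81.5 and 88.4% of it was Col1a1 and Col1a2, and of the 10 genes 4 rose and 3 fell in Bcl3-/- and 4 rose and 2 fell in WT libraries. Alpl fell by 0.90 in Bcl3-/- (SE 0.21, adjusted p = 0.00659) and by 1.45 in WT libraries (SE 0.22, adjusted p = 0.000303), and Sp7 by 0.93 in Bcl3-/- (SE 0.20, adjusted p = 0.00444) and by 2.27 in WT libraries (SE 0.21, adjusted p = 1.36e-05).

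Between genotypes on day 3, 1 of the 9 genes was called. Tnfrsf11a had 4.06, 3.08 and 3.05 CPM in Bcl3-/- libraries, against 6.26, 5.55 and 6.90 CPM in WT libraries, and the groups did not overlap. It was 0.547 times the WT level, a log2 fold change of -0.87 (SE 0.17, adjusted p = 0.00766, edgeR). On log2(FPKM + 1) and log2(FPKM + 0.1) limma did not call it (adjusted p = 0.0773 and 0.0739), but did on log2(FPKM + 1) with a filter of 1 FPKM in 3 libraries (adjusted p = 0.0357). Of all tested genes 4.78% were called higher and 5.6% lower on that day, so 1 call among 9 genes, or 11.1%, is near the share over all genes. The median log2 fold change was -0.19 for the 9 genes and 0.00 for all.

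Ctsk had 386, 396 and 377 CPM in day 3 Bcl3-/- libraries and 244, 317 and 334 CPM in day 3 WT libraries. The groups were apart, and the log2 fold change of 0.37 (95% interval 0.11 to 0.64) was not called (adjusted p = 0.0699, edgeR). It was called with no count filter (adjusted p = 0.0359), with DESeq2 (adjusted p = 0.0347), and without day 1 WT replicate 3 (adjusted p = 0.0424) or day 3 WT replicate 3 (adjusted p = 0.0450). Nfatc1, with 39.3, 38.1 and 46.3 CPM in Bcl3-/- libraries and 57.1, 53.2 and 50.4 CPM in WT libraries, was also apart, at -0.38 (95% interval -0.68 to -0.08, adjusted p = 0.0990). It was called with no count filter (adjusted p = 0.0274) and without day 1 WT replicate 3 (adjusted p = 0.0315). In all, 1 of 9 genes was apart upward and 2 downward, or 33.3%, near the 28.7% of all tested genes that were apart.

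The other 6 overlapped between the genotypes on day 3. Their 95% intervals were -0.19 to 0.56 for Acp5, -0.27 to 0.39 for Itgb3, -0.44 to 0.58 for Atp6v0d2, -0.97 to 0.59 for Ocstamp, -1.31 to 0.52 for Oscar and -1.97 to 0.58 for Dcstamp on the log2 scale. The intervals of Acp5, Itgb3 and Atp6v0d2 stayed within 0.58 of 0 on either side. Those of Ocstamp, Oscar and Dcstamp reached to -0.97 or lower, so only a large difference would have been detectable at this depth. Macrophage markers stood beside this comparison with 0 of 20 higher and 2 lower in Bcl3-/- libraries, Cx3cr1 at -3.29 (SE 0.42, adjusted p = 0.00146) and Csf1r at -0.90 (SE 0.17, adjusted p = 0.00824). Of the 20, 8 had an unadjusted p under 0.05 and 5 were called by DESeq2, and their median log2 fold change was -0.68, against 0.00 for all tested genes. Csf1r had a mean of 26.5 ± 6.48 CPM in Bcl3-/- and 49.4 ± 7.54 CPM in WT libraries (SD, n = 3 each). Adgre1 and Cd68, at -0.29 and -0.04, did not pass the test on that day (adjusted p = 0.372 and 0.930). Csf1r was thus lower together with Tnfrsf11a, and the part of macrophages in that difference was not tested.

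On day 1, 3 of the 9 genes were called between genotypes, Ctsk higher and Nfatc1 and Tnfrsf11a lower in Bcl3-/- libraries. Among all tested genes 9.03% were called higher and 6.26% lower, and the median log2 fold change was 0.23 for the 9 genes and 0.00 for all. Ctsk had 205, 175 and 199 CPM in Bcl3-/- libraries and 126, 127 and 160 CPM in WT libraries, which did not overlap. Its log2 fold change was 0.49 (SE 0.12, adjusted p = 0.0185, edgeR). This call was lost without day 1 Bcl3-/- replicate 1 (adjusted p = 0.0844) or 3 (0.0798), without day 1 WT replicate 1 (0.108) or 2 (0.0990), and on log2(FPKM + 1) and log2(FPKM + 0.1) with limma (0.0761 and 0.0721), with values between 0.42 and 0.46 in these 6 fits.

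Nfatc1 had 50.4, 50.3 and 56.2 CPM in Bcl3-/- libraries and 105, 89.2 and 67.4 CPM in WT libraries on day 1. The Bcl3-/- libraries lay close together and below all WT libraries, which were scattered. It was 0.600 times the WT level, a log2 fold change of -0.74 (SE 0.14, adjusted p = 0.00428, edgeR), and this call held in each of the 12 fits that left out a library and in each of the 9 other alternatives run. Tnfrsf11a had 3.16, 3.89 and 2.77 CPM in Bcl3-/- libraries and 5.52, 6.12 and 5.70 CPM in WT libraries, again apart. Its log2 fold change of -0.82 (SE 0.16, adjusted p = 0.00648) lay near that of day 3, and the 2 days were not called different (-0.05, SE 0.23, adjusted p = 0.965). On log2(FPKM + 1) it was -0.44 with limma and not called (adjusted p = 0.115, and 0.0545 with a filter of 1 FPKM in 3 libraries), and on log2(FPKM + 0.1) it was -0.77 (adjusted p = 0.117).

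The remaining 6 genes were not called on day 1. Acp5 had 5.97, 7.40 and 8.73 CPM in Bcl3-/- libraries and 4.48, 4.85 and 5.65 CPM in WT libraries, apart, at 0.55 (95% interval 0.15 to 0.95, adjusted p = 0.0623, edgeR). Itgb3 had 36.7, 34.6 and 34.0 CPM in Bcl3-/- libraries and 21.8, 24.8 and 30.6 CPM in WT libraries, also apart, at 0.44 (95% interval 0.11 to 0.78, adjusted p = 0.0741). Both came under the threshold with no count filter (adjusted p = 0.0293 for Acp5 and 0.0223 for Itgb3) and with DESeq2 (0.0309 and 0.0433). Acp5 was also called without day 3 WT replicate 1 (0.0236), and Itgb3 in the 6 day 1 libraries alone (0.0363), and when day 1 WT replicate 3 (0.0255) or day 3 Bcl3-/- replicate 3 (0.0344) was left out.

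Oscar had 0.303, 0.170 and 0.198 CPM in day 1 Bcl3-/- libraries, from 12, 5 and 6 reads, and 0.317, 0.592 and 0.772 CPM in day 1 WT libraries, from 7, 26 and 29 reads. The groups were apart by a narrow gap, and the log2 fold change of -1.32 (95% interval -2.26 to -0.39) was not called (adjusted p = 0.0577, edgeR). Without day 1 WT replicate 1, the lowest of its group, it was -1.57 and called (adjusted p = 0.0499). The deposited FPKM ordered the Oscar libraries otherwise: day 3 Bcl3-/- replicate 3 was the highest of its group at 0.528 FPKM, with 7 reads. The 95% intervals of the rest on day 1 were -0.38 to 0.84 for Atp6v0d2, -0.35 to 1.58 for Dcstamp and -0.79 to 0.84 for Ocstamp. Counted over the 9 genes, 3 were apart upward and 3 downward, and 38.3% of all tested genes were apart. The downward count takes in Oscar, which rests on few reads and the narrow gap given above.

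Between genotypes, 4.78% of all tested genes were called higher and 5.6% lower on day 3, and 9.03% higher and 6.26% lower on day 1. Of the pathway lists, repressors gave 1 higher and 0 lower of 12 on day 1 between genotypes, Lgals9 at 0.76 (SE 0.15, adjusted p = 0.00546, edgeR), and 2 higher and 1 lower on day 3. RANK and M-CSF signaling genes gave 1 higher and 3 lower of 24 on each day. Tnfrsf11b was lower in Bcl3-/- libraries on both days, with 40.3 ± 3.50 CPM in Bcl3-/- and 89.8 ± 37.5 CPM in WT libraries on day 3, and 88.1 ± 10.5 CPM in Bcl3-/- and 225 ± 75.8 CPM in WT libraries on day 1 (SD, n = 3 each). Its log2 fold change was -1.16 on day 3 (SE 0.28, adjusted p = 0.0213) and -1.35 on day 1 (SE 0.27, adjusted p = 0.00687). Tnfsf11 was at 0.10 on day 3 (SE 0.22, adjusted p = 0.806) and -0.07 on day 1 (SE 0.22, adjusted p = 0.868). Csf1 was lower on day 1, at -0.47 (SE 0.12, adjusted p = 0.0230), and at 0.03 on day 3 (SE 0.12, adjusted p = 0.908).

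The counts that follow stand beside shares over all tested genes of 4.78% higher and 5.6% lower on day 3, and 9.03% higher and 6.26% lower on day 1, and with lists this short a single gene is already a share of that order. Of 11 tested ITAM genes, 0 were higher and 1 lower on day 3, and 0 higher and 2 lower on day 1 (edgeR). Syk was called on both days, at -0.999 on day 3 (SE 0.21, adjusted p = 0.0106) and -0.71 on day 1 (SE 0.20, adjusted p = 0.0295). Of 11 fusion genes, 0 were higher and 1 lower on day 3, and 1 higher and 3 lower on day 1, Cd44 at -0.74 on day 3 (SE 0.12, adjusted p = 0.00417) and -0.87 on day 1 (SE 0.12, adjusted p = 0.00138). Resorption genes gave 2 higher and 3 lower of 24 on day 3, and 2 higher and 0 lower on day 1. Car2 was among those lower on day 3, at -3.11 (SE 0.82, adjusted p = 0.0327). Without 1 library it ran from -4.32 to -2.24, with an adjusted p of up to 0.150 (edgeR). Mmp14 was higher on day 1, at 0.43 (SE 0.08, adjusted p = 0.00375). Of 11 tested integrin partners, 0 were higher and 3 lower on each day, with Fermt2, the integrin activator kindlin-2, at -0.43 on day 3 (SE 0.08, adjusted p = 0.00863) and -0.36 on day 1 (SE 0.08, adjusted p = 0.0138).

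On day 1 none of the 20 macrophage markers was called between genotypes by edgeR, and 2 of them had an unadjusted p under 0.05 and 1 was called by DESeq2. Their sums were 688 to 1158 CPM in Bcl3-/- and 658 to 939 CPM in WT libraries. Of 7 tested endothelium markers, 2 were called higher in Bcl3-/- libraries on day 3 and 3 on day 1, none was called lower, and Pecam1 and Cdh5 were called on neither day. The list had sums of 22.7 to 25.9 CPM in day 3 Bcl3-/- and 11.0 to 13.8 CPM in day 3 WT libraries, and 11.7 to 15.4 CPM in day 1 Bcl3-/- and 7.76 to 9.00 CPM in day 1 WT libraries. Of 8 smooth muscle markers, 5 were called lower on day 3 and 4 on day 1, and none higher. Of the osteoblast list, 3 of 10 were higher and 1 lower on day 3, and 5 higher and 1 lower on day 1. The part of these cell types in the genotype differences of the osteoclast genes was not tested.

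The change over time was not called different between the genotypes for any of the 9 genes by edgeR, and 0 of 9 had an unadjusted p under 0.05 in this interaction. Of all tested genes 1.12% were called, that is 183 genes, and 292 genes with the 3 cultures of each genotype as a replicate block. The estimates ran from -1.31 for Dcstamp to 0.93 for Oscar, both with few reads. Among the better counted genes they were -0.37 for Acp5 (95% interval -0.91 to 0.18), -0.38 for Itgb3 (-0.85 to 0.09), -0.11 for Ctsk (-0.48 to 0.26) and 0.36 for Nfatc1 (-0.06 to 0.78). With DESeq2 and on log2(FPKM + 1) the count of members called was also 0.

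The profiles of the 9 genes over the 12 libraries were compared as centred log2 CPM, by the root-mean-square distance. The nearest pair was Ctsk and Itgb3, at 0.21, followed by Acp5 and Ctsk, at 0.30, and Acp5 and Atp6v0d2, at 0.40. Nfatc1 was nearest to Tnfrsf11a, at 0.43. That distance was about the size of their own root-mean-square spread around the mean, 0.41 for Nfatc1 and 0.45 for Tnfrsf11a, so the 2 profiles were not close. Dcstamp was the most distant from the resorption genes, at 1.66 from Acp5 and 1.79 from Atp6v0d2. The 12 libraries share cultures and a common counting, so these distances describe the libraries only.

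Among all tested genes, the 3 with profiles nearest to Ctsk were Itm2b, Cercam and Ankrd24, at 0.07, 0.09 and 0.10. Those nearest to Acp5 were Cryzl2, Pdk1 and Smoc2, at 0.15, 0.20 and 0.21, and those nearest to Itgb3 were Sulf2, Mocos and Dpp7, at 0.10, 0.12 and 0.13. For Nfatc1 they were Cux1, Taf4b and Tiparp, at 0.08, 0.09 and 0.10, and for Tnfrsf11a Ptpn7, Itga6 and Zfp27, at 0.15, 0.21 and 0.21. For Atp6v0d2 they were Colq, Slc16a4 and Rflnb, at 0.31, 0.32 and 0.35. The nearest profiles of the low genes lay at distances of at least 0.32 for Dcstamp (Il6, Tnfsf9 and Gm28323), 0.23 for Ocstamp (Dcp1b, Gm12183 and Ptges3l) and 0.36 for Oscar (Kirrel3, Gm19744 and Gm19265). None of these 27 nearest genes was another of the 9.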

How the data were processed

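RNA of calvarial osteoblast cultures was made into libraries with SMART-seq v4 and read on an Illumina HiSeq. The authors trimmed reads with Trim Galore, aligned them to GRCm38 with TopHat2 and counted reads per gene with HTSeq, and the deposited counts are raw. The deposited FPKM values were made by the authors with Cufflinks, and 49 entries with several values and 1 stray header were left out. Versions, annotation release and strand setting are not given in the sources used here. Reads outside genes, between 12.3 and 14.7% per library, were left out. No library was a copy of another, with a chi-square of at least 9.40 per gene over 66 pairs.

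Genes with enough reads by filterByExpr in edgeR (cutoff 0.315 CPM in at least 3 libraries) were kept, 16318 in all, and scaled by TMM (factors 0.951 to 1.05). A quasi-likelihood fit to the 4 groups (12 libraries, biological coefficient of variation 13.5%) gave 5 contrasts, each with Benjamini-Hochberg adjustment. Replicates are separate cultures by the labels. Culture codes are shared between days and pair them. Deviations from the group means of libraries with the same code correlated at 0.24 to 0.33 between days in WT and at -0.16 to -0.02 in Bcl3-/- libraries. Names and positions of genes are those of GENCODE M21.

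The 9 genes and the lists were chosen with earlier results of these data known, and a gene taken out of the lists is not reported here. All 9 genes are named; of each pathway list, genes among the 4 with the smallest adjusted p in a contrast, plus Tnfsf11, Tnfrsf11b, Csf1 and Csf1r; and, for each of the 9, the 3 nearest profiles of log2 CPM (prior count 2). Intervals are at 95%, and a count of 0 was read as up to 3 reads. Alternatives were RLE normalization, DESeq2, no count filter, a filter of 1 CPM in 6 libraries, limma on log2(FPKM + 0.1) and on log2(FPKM + 1), the last also with a filter of 1 FPKM in 3 libraries, the 6 libraries compared alone, replicate blocks, and leaving out each of the 12 libraries. The edgeR fit was also run on simulated counts of independent libraries (R 4.3.3, edgeR 4.0.16, limma 3.58.1, DESeq2 1.42.0 and Python 3.11.15). These lack the shared cultures, so they do not bear on the pairing of days, and no result above rests on them.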

Additional observations from a re-analysis of the deposited data

Results flagged for a closer look

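None of the 9 osteoclast genes had a genotype difference that itself differed between the days by the edgeR interaction test. Of all 16318 tested genes 183 were called in it, or 1.12%. The surrounding lists hold many more genes than the 9, and 6 of their genes were called. Each value below is the log2 genotype difference on day 3 minus that on day 1, tested across all genes. A macrophage marker was among them, Cx3cr1, a receptor of monocytes and macrophages, at -2.61 (SE 0.56, adjusted p = 0.0499). Cx3cr1 had a mean of 0.914 ± 0.616 CPM in day 3 Bcl3-/- and 9.58 ± 1.77 CPM in day 3 WT libraries, and 2.49 ± 0.669 CPM in day 1 Bcl3-/- and 3.99 ± 1.51 CPM in day 1 WT libraries (SD, n = 3 each). Fos, an AP-1 subunit required for osteoclasts to form, was at -1.20 (SE 0.21, adjusted p = 0.0281), and Cd47, a ligand of the fusion receptor Sirpa, at -0.48 (SE 0.10, adjusted p = 0.0373). Spp1, a ligand of integrin αvβ3, was at -1.27 (SE 0.22, adjusted p = 0.0309). Id1, an inhibitor of helix-loop-helix factors, was at 1.29 (SE 0.24, adjusted p = 0.0335), and Sp7, the osteoblast transcription factor osterix, at 1.34 (SE 0.29, adjusted p = 0.0476). Each kept its sign whichever library was left out, but few calls held: of 12 such fits, 4 held for Fos and Id1, 3 for Spp1, 2 for Cx3cr1 and Cd47 and 1 for Sp7.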

How the results depend on the processing

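The rises of Acp5, Ctsk, Atp6v0d2 and Itgb3 over time in both genotypes, the fall of Nfatc1 in WT libraries over time, and the lower Nfatc1 in Bcl3-/- libraries on day 1 were called in every alternative run that kept the gene. The genotype counts were less firm. On day 1, 3 of the 9 genes were called, against 5 with no count filter, 5 with DESeq2, 1 on log2(FPKM + 1), 1 on log2(FPKM + 0.1), and 2 to 4 without 1 library. On day 3, 1 was called, against 3 with no count filter, 2 with DESeq2, 0 on log2(FPKM + 1), 0 on log2(FPKM + 0.1), and 1 to 3 without 1 library (3 without day 1 WT replicate 3 and 2 without day 3 WT replicate 3). The cause was not tested. Title numbers are shared between genotypes, but same-numbered libraries correlated at -0.06 to 0.04 on day 1 and 0.06 to 0.21 on day 3. With the title number as a replicate block, 5 of the 9 were called on day 1, Acp5 (adjusted p = 0.0333) and Itgb3 (0.0219) being added. With the culture as a replicate block, 292 genes were called in the interaction, against 183, and beside Nfatc1 in Bcl3-/- libraries over time no other call of the 9 changed. Calls of several list genes were also lost without 1 library. Their highest adjusted p by edgeR was 0.150 for Car2 and 0.0937 for Tnfrsf11b between genotypes on day 3, and 0.0836 for Csf1 on day 1. Over time it was 0.218 for Csf1r in Bcl3-/- and 0.132 for Tnfsf11 in WT libraries.

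Over all genes, 2494 were called on day 1, against 1437 on log2(FPKM + 1), 1494 on log2(FPKM + 0.1) and 1253 to 2905 without 1 library (1253 and 1291 without day 1 WT replicate 1 and 2, and 1613, 1452 and 1549 without day 1 Bcl3-/- replicate 1, 2 and 3). On day 3, 1693 were called, against 1030 on log2(FPKM + 1), 978 on log2(FPKM + 0.1), 814 in the 6 libraries alone and 698 to 1879 without 1 library (698 without day 3 Bcl3-/- replicate 2 and without day 3 WT replicate 1, and 1107 without day 3 WT replicate 2). The interaction gave 183, against 552 with no count filter, 475 with DESeq2, 5 on log2(FPKM + 1), 4 on log2(FPKM + 0.1) and 1 to 475 without 1 library. Over time the range without 1 library was 4138 to 5594 in Bcl3-/- and 4629 to 6796 in WT libraries. Of the 9 genes, 5 to 6 were called in Bcl3-/- libraries and 5 in each fit in WT libraries. The Bcl3-/- number takes in Dcstamp, which passed the filter through its day 1 libraries.

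Signs turned only in differences that were not called. Atp6v0d2 on day 3 between genotypes was -0.040 on log2(FPKM + 1), with and without the FPKM filter, and -0.073 on log2(FPKM + 0.1). Tnfrsf11a over time in Bcl3-/- libraries was -0.047 on log2(FPKM + 1), with and without that filter, and -0.11 on log2(FPKM + 0.1), and Oscar on day 3 was 0.019 on log2(FPKM + 1). Ranges without 1 library crossed 0 between genotypes on day 1 for Ocstamp (-0.32 to 0.37), Bcl3 (-0.090 to 0.068) and Tnfsf11 (-0.21 to 0.082), on day 3 for Atp6v0d2 (-0.15 to 0.24), Itgb3 (-0.11 to 0.19), Csf1 (-0.080 to 0.14) and Tnfsf11 (-0.11 to 0.30), over time for Tnfrsf11a in Bcl3-/- libraries (-0.091 to 0.20) and Oscar in WT libraries (-0.41 to 0.12), and in the interaction for Ocstamp (-0.54 to 0.14), Atp6v0d2 (-0.39 to 0.018), Tnfrsf11a (-0.20 to 0.12), Tnfrsf11b (-0.067 to 0.56) and Tnfsf11 (-0.041 to 0.37). Dcstamp, Ocstamp and Oscar have at most 29 reads in a library, which limits what could be seen.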
